A study of Homo sapiens with 2 samples.

Results

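The BCL2 family sets whether a stressed cell opens the outer membrane of its mitochondria. Pro-survival members such as BCL-XL (gene BCL2L1) and MCL1 bind and restrain the effectors BAX and BAK1, which otherwise form pores that release cytochrome c and start the caspases. BH3-only members such as PUMA (gene BBC3), BIM (BCL2L11), BAD, BID, BIK and NOXA (PMAIP1) carry death signals to the family, by occupying the pro-survival proteins or by activating the effectors.

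The 10 genes described here are the rows of the deposited table whose symbol is BCL2L1, MCL1, BAX, BAK1, BBC3, BCL2L11, BAD, BID, BIK or PMAIP1, and all 10 were found among its 13137 genes. They are 2 pro-survival genes and 8 pro-death genes, of which 2 are effectors and 6 are BH3-only. The libraries came from A549, a human lung adenocarcinoma cell line that carried a doxycycline-inducible hairpin RNA under an H1 promoter with Tet operator. In A549-H1tetO-shRNA-SOX2 the hairpin is directed against the transcription factor SOX2, and in A549-H1tetO-shRNA-Con it has a scrambled sequence. Both were polyclonal puromycin-selected lines made by lentiviral infection, both received doxycycline for 4 days, and a single hairpin stands for the knockdown. From 4 µg of total RNA the mRNA was sequenced as digital gene expression, which counts 1 short tag per captured mRNA, so that tag levels were compared between genes without division by length.

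With 1 library per condition there is no replicate check. Each gene's tags were compared in Fisher's exact test (two-sided), a test of those libraries rather than of the conditions, and intervals cover counting error only. A gene is called when its adjusted p is under the FDR of 0.001 that the study used. The shRNA-Con library held 2304184 tags on genes and the shRNA-SOX2-labelled library held 2093816. The targeted gene had 16 and 23 tags, a ratio of 1.58 (95% interval 0.80 to 3.2), so the SOX2 mRNA does not check the label, and every direction below rests on the labels and on the reading of the abbreviated column headers. Of 11 listed A549 markers that were analysed, 10 had 20 or more tags in both libraries summed, among them ALDH1A1 with 7035 and 14268 tags in shRNA-Con and the shRNA-SOX2-labelled library and KRT18 with 10318 and 7887, and the epithelial marker EPCAM had 8 and 4. Of 10 listed markers of other cells 3 were analysed, with 49 and 45 tags in sum. PTPRC of blood cells had 2 tags in each library, PECAM1 of endothelium had 3 and 0, and COL1A1 of fibroblasts had 44 and 43.

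Of the 10 genes, 1 was called higher in the shRNA-SOX2-labelled library, against 9.53% of all genes, and 3 were called lower, against 12.2% of all genes. BBC3 was the gene that rose, and BCL2L1, MCL1 and BAD fell. The share of calls grows with the number of tags. Among the 7 members with 100 or more tags in both libraries summed the counts were again 1 and 3, where 16.6% of all such genes were called higher and 22.5% lower. The median log2 fold change of the 9 members with at least 20 tags was -0.41, and that of all such genes was -0.10. In bulk RNA a change in which cells are present and a change in a gene's share of the mRNA per cell cannot be told apart. The split of calls over the whole table depended on the scaling, with 56.1% lower by gene tags, 49.4% by TMM factors and 66.6% by all clean tags, and the last of these lowers every gene's log2 fold change by a further 0.11.

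The region just upstream of the start is shown for 4 members, taken from RefSeq for build GRCh38.p14 and cut to the longest stretch that no exon annotated in GENCODE release 29 covers. They are BBC3, which rose, BCL2L1, the pro-survival gene with the most tags, and BAX and PMAIP1, an effector and a BH3-only gene whose intervals held 1. They are chr19:47232767-47232917 on the minus strand for BBC3, chr19:48954625-48954814 on the plus strand for BAX, chr18:59899746-59899947 on the plus strand for PMAIP1 and chr20:31723990-31724213 on the minus strand for BCL2L1. Capitals mark matches of motifs that were searched for on either strand. Those marked in these stretches are GGGCGG, known as the GC box, CACGTG, known as the E box, and the CCAAT box. The core AACAAT that SOX factors bind was also searched for and had no match in them.
BBC3: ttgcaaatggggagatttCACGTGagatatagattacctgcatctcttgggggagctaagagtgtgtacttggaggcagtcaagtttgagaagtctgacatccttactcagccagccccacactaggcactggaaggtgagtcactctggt
BAX: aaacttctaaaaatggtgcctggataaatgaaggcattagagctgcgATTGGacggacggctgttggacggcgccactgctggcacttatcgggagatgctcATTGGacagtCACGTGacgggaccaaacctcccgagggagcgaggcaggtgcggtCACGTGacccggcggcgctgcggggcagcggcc
PMAIP1: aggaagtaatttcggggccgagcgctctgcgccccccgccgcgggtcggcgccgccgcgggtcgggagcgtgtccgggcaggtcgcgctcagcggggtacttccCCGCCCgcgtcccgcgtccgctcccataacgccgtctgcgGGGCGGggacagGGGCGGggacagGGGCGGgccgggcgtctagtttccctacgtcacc
BCL2L1: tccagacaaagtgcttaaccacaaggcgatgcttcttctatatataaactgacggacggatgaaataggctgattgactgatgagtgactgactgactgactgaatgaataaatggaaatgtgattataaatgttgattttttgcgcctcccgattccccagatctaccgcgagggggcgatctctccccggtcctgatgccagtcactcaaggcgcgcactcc

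Windows of 250 bases before the first listed start were found for 8 of the 10 genes, and not for MCL1 and BIK. AACAAT was in 0 of these 8 and in 9.19% of the 27305 windows of all genes. CACGTG was in 2 of the 8, with 4 copies before BAX and 1 before BBC3, and in 6.49% of all windows. GGGCGG was in 6 of the 8 against 42.3% of all windows, and those of BBC3 and BCL2L1 were the windows without it. The CCAAT box was in 5 of the 8, among them BBC3 and BAX, and in 33.0% of all windows. Matches in the part of a window that is not printed are counted here. These windows had a GC content of 49.2% for BBC3 and 50% for BCL2L1, against 76.8% for BCL2L11 and 72.8% for PMAIP1 and a median of 58% over all windows. A match of letters is a description and not a bound site, and other starts of these genes were not searched.

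BCL2L1 codes for BCL-XL, which holds BAX, BAK1 and BH3-only proteins in check. It had 514 tags in shRNA-Con against 268 in the shRNA-SOX2-labelled library, or 223 and 128 CPM (tags per 1000000 tags on genes). It was the member with the most tags in shRNA-Con and was the third in the other. The ratio was 0.574 (95% interval 0.493 to 0.666), a log2 fold change of -0.80 (Fisher's exact test, adjusted p = 8.45e-13). BCL2L1 is overlapped by 2 antisense genes, ABALON and AL117381.1, and the sources used here do not say whether strand was used in counting.

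MCL1 codes for a pro-survival protein that is made and degraded rapidly. It had 424 tags in shRNA-Con against 290 in the shRNA-SOX2-labelled library, or 184 and 139 CPM. The ratio was 0.753 (95% interval 0.646 to 0.876), a log2 fold change of -0.41 (Fisher's exact test, adjusted p = 0.000829). The call depended on the scaling. With TMM factors the log2 fold change was -0.34 and Fisher's exact test gave an adjusted p of 0.00761, which does not pass, and over the alternatives tried the adjusted p ranged from 1.23e-05 to 1. MCL1 is overlapped on its own strand by the noncoding gene ADAMTSL4-AS1, and how tags of both were assigned is not given in the sources used here. The MCL1 log2 fold change was closer to the median of all genes than that of BCL2L1.

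**Figure D1:**
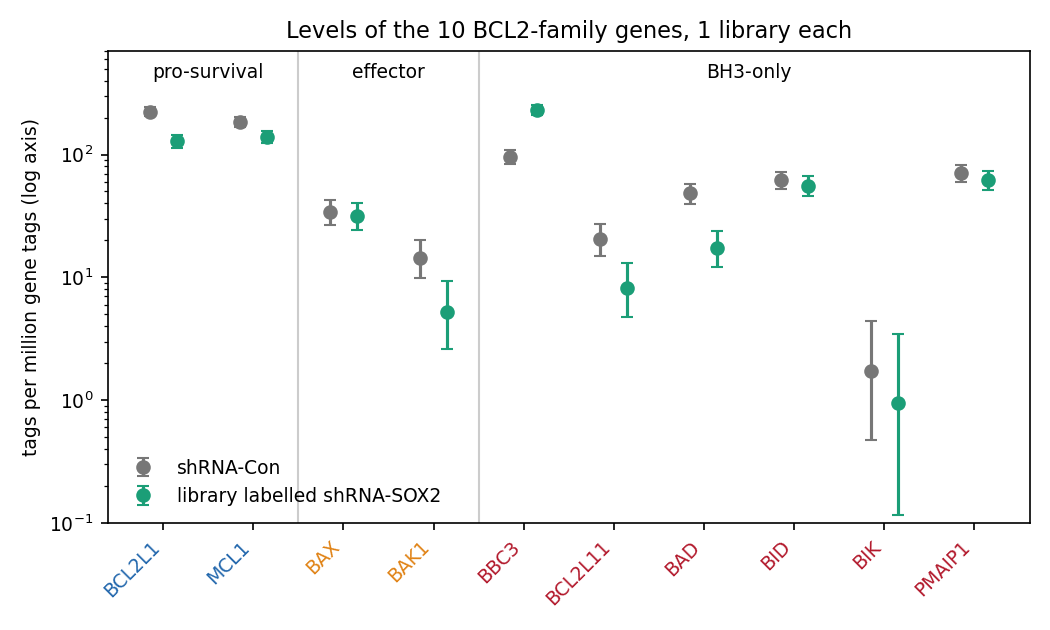
Level in CPM, tags per 1000000 tags on genes (log axis), of the 10 genes in 1 shRNA-Con library (grey) and the 1 shRNA-SOX2-labelled library (green). Points are the measured levels and bars their 95% Poisson intervals. BBC3 moved from 95.9 to 230.2 CPM, while BCL2L1 and MCL1 moved the other way and BIK lay near the lowest counts.

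The effectors form the pore in the outer membrane. BAX had 78 tags in shRNA-Con against 66 in the shRNA-SOX2-labelled library, or 33.9 and 31.5 CPM, a ratio of 0.931 (95% interval 0.661 to 1.31). BAK1 had 33 and 11 tags, or 14.3 and 5.25 CPM, a ratio of 0.367 (0.167 to 0.744; Fisher's exact test, adjusted p = 0.0121). None of the effectors was called (0 of 2), and 1 had an unadjusted p under 0.05 in Fisher's exact test. So had 5800 of all 13137 genes. For BAX a difference was not detectable at this depth, while the interval of BAK1 lay below 1 without reaching the threshold. BAK1 has 2 pseudogenes by name, BAK1P1 and BAK1P2, and how tags shared with them were counted is not given in the sources used here.

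Among the BH3-only genes, BBC3 codes for PUMA, which binds all the main pro-survival proteins. It had 221 tags in shRNA-Con against 482 in the shRNA-SOX2-labelled library, or 95.9 and 230.2 CPM. The ratio was 2.40 (95% interval 2.04 to 2.83), a log2 fold change of 1.26 (Fisher's exact test, adjusted p = 1.68e-27). Its count exceeded those of 84.6% of the 13137 genes in shRNA-Con and of 94.8% in the shRNA-SOX2-labelled library, where it was the member with the most tags. BBC3 was the single member whose interval lay above 1, and those of 5 members lay below 1. These 6 members had an unadjusted p under 0.05 in Fisher's exact test, as had 5800 of all 13137 genes.

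BAD codes for a protein that binds BCL-XL and is held by 14-3-3 proteins when survival kinases phosphorylate it. It had 111 tags in shRNA-Con against 36 in the shRNA-SOX2-labelled library, or 48.2 and 17.2 CPM. The ratio was 0.357 (95% interval 0.238 to 0.524), a log2 fold change of -1.49 (Fisher's exact test, adjusted p = 1.06e-07), the lowest log2 fold change of the 9 members with at least 20 tags. BAD lies antisense to GPR137, so its tags carry the same doubt on strand as those of BCL2L1.

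BCL2L11 codes for BIM, which can bind every main pro-survival protein and activate BAX directly. It had 47 tags in shRNA-Con against 17 in the shRNA-SOX2-labelled library, or 20.4 and 8.12 CPM, a ratio of 0.398 (95% interval 0.214 to 0.706; Fisher's exact test, adjusted p = 0.00272), which is short of the threshold. BCL2L11 lies antisense to the noncoding gene MIR4435-2HG. At an FDR of 0.05 it and BAK1 also passed, and the count of members was then 6, with 1 higher, where 16.4% of all genes were, and 5 lower, where 21% were.

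PMAIP1, whose protein NOXA binds mainly MCL1, had 162 tags in shRNA-Con against 129 in the shRNA-SOX2-labelled library, or 70.3 and 61.6 CPM. Its ratio was 0.876 (95% interval 0.690 to 1.11). BID, which links death receptors to mitochondria after cleavage by caspase 8, had 142 and 117 tags, or 61.6 and 55.9 CPM, and a ratio of 0.907 (0.704 to 1.17). BIK, a BH3-only protein of the endoplasmic reticulum, had 4 and 2 tags, a ratio of 0.550 with an interval from 0.0498 to 3.84, so that no difference could be read for it. PMAIP1 and BID had more tags than BAD, BAX, BCL2L11, BAK1 and BIK in both libraries, and the intervals of their ratios reached from 0.690 at the lowest to 1.17 at the highest.

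**Figure D2:**
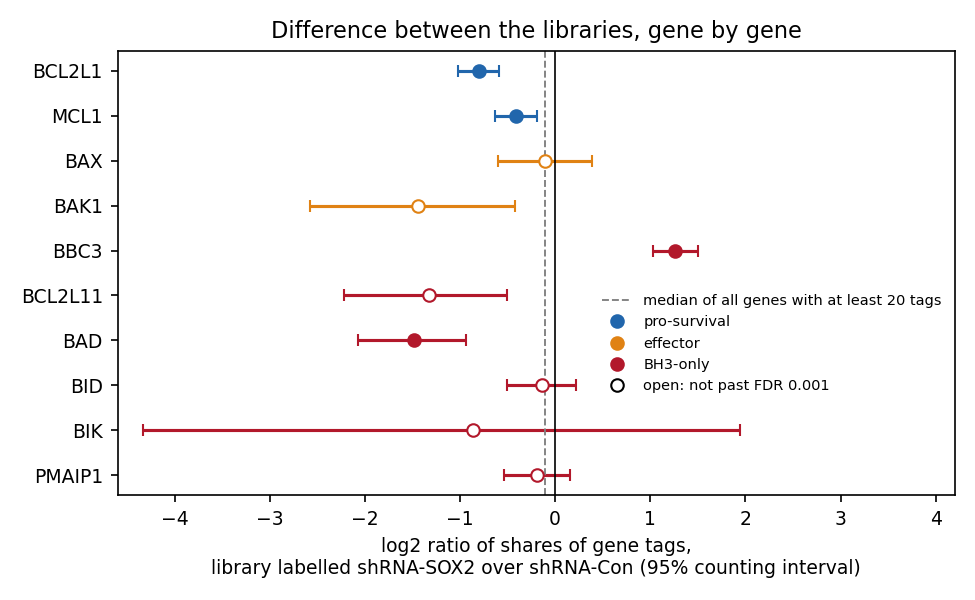
Log2 ratio of each gene's share of gene tags, shRNA-SOX2-labelled library over shRNA-Con, with its 95% counting interval and 1 library per condition. Colours give the role, filled points are past FDR 0.001 in Fisher's exact test, and the dashed line is the median of all genes with at least 20 tags (-0.10). BBC3 at 1.26 stands to the right of 0, and BCL2L1, MCL1, BAK1, BCL2L11 and BAD have intervals wholly to the left.

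The order of the genes within a library also differed. In shRNA-Con the order by tags was BCL2L1, MCL1, BBC3, PMAIP1, BID, BAD, BAX, BCL2L11, BAK1 and BIK. In the shRNA-SOX2-labelled library it was BBC3, MCL1, BCL2L1, PMAIP1, BID, BAX, BAD, BCL2L11, BAK1 and BIK. Neighbours whose 95% Poisson intervals overlapped were, in shRNA-Con, each pair of the run from PMAIP1 to BAK1. In the shRNA-SOX2-labelled library they were MCL1 with BCL2L1, PMAIP1 with BID, and each pair of the run from BAD to BIK. BBC3 thus moved from the third to the first place, and BAD and BAX exchanged places.

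The pro-survival genes were next set against the pro-death genes inside each library, which does not depend on how the libraries are scaled. The 2 pro-survival genes held 938 of 1736 member tags in shRNA-Con, 54.0% (95% Clopper-Pearson interval 51.7% to 56.4%), and 558 of 1418 in the shRNA-SOX2-labelled library, 39.4% (36.8% to 41.9%). Pro-survival tags per pro-death tag were 1.18 and 0.649. The total of pro-death tags was 798 and 860, so that the pro-survival tags were the more numerous in shRNA-Con and the fewer in the other library.

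This difference was smaller without BBC3, the member called higher, which was left out after its values were seen. The share of BBC3 in the member tags was 12.7% in shRNA-Con against 34.0% in the shRNA-SOX2-labelled library. Without BBC3 the pro-survival share was 61.9% (95% Clopper-Pearson interval 59.4% to 64.4%) in shRNA-Con and 59.6% (56.4% to 62.8%) in the shRNA-SOX2-labelled library, intervals that overlap. The other 7 pro-death genes together had 577 and 378 tags, fewer in the shRNA-SOX2-labelled library, as were the pro-survival tags. Without BBC3 and BCL2L1, the most abundant member of each side, the shares were 42.4% and 43.4%. A setting that adds the further family genes, without BCL2 and BCL2L10, which had no values, gave 55.1% and 42.9%.

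**Figure D3:**
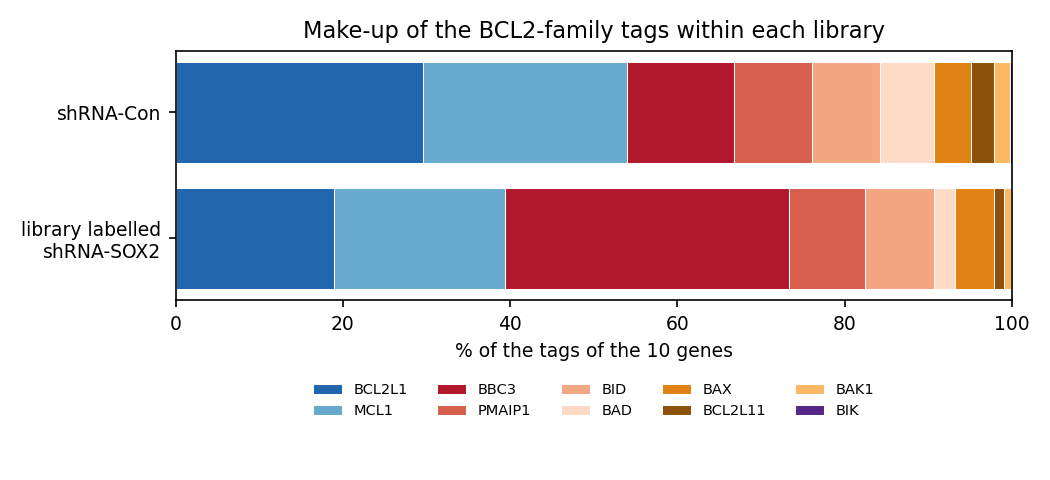
Make-up of the tags of the 10 genes within each of the 2 libraries, in % of their sum. Blue is pro-survival, and the other colours are pro-death. The blue part ends at 54.0% in shRNA-Con and at 39.4% in the shRNA-SOX2-labelled library, and the BBC3 part (dark red) widens from 12.7% to 34.0%.

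Each pro-survival gene was also divided by each pro-death gene within a library, which gives 16 ratios that share their genes and are given as descriptions. Relative to shRNA-Con, the 95% interval of the fold between the libraries lay below 1 for 5 of the 16, above 1 for 3 and across 1 for 8. BCL2L1 tags per BBC3 tag went from 2.33 in shRNA-Con to 0.556 in the shRNA-SOX2-labelled library, a fold of 0.239 (0.191 to 0.299). MCL1 tags per BBC3 tag went from 1.92 to 0.602, a fold of 0.314 (0.251 to 0.392). These were the lowest folds of the 16.

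BCL2L1 also had a lower ratio to BAX, 6.59 in shRNA-Con against 4.06 in the shRNA-SOX2-labelled library (fold 0.616, interval 0.424 to 0.899), to BID (fold 0.633, 0.471 to 0.852) and to PMAIP1 (fold 0.655, 0.493 to 0.870). The ratio of MCL1 to its partner PMAIP1 was 2.62 and 2.25, a fold of 0.859 whose interval, 0.646 to 1.14, held 1. Against BAD the direction was the opposite. BCL2L1 tags per BAD tag were 4.63 and 7.44 (fold 1.61, 1.06 to 2.48), and MCL1 tags per BAD tag were 3.82 and 8.06 (fold 2.11, 1.39 to 3.26). MCL1 tags per BCL2L11 tag were 9.02 and 17.1 (fold 1.89, 1.04 to 3.58).

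**Figure D4:**
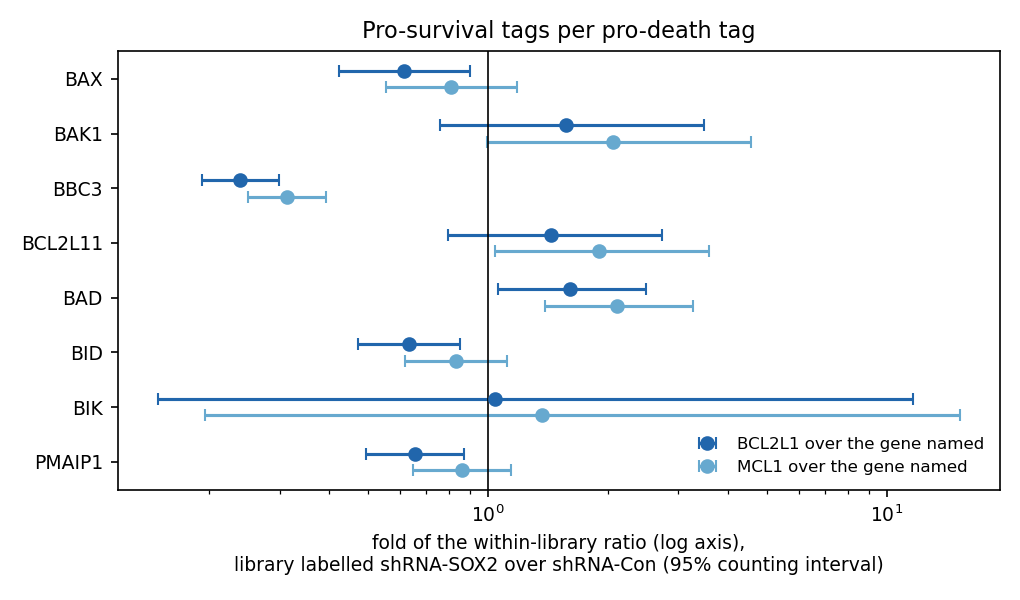
Fold of the within-library tag ratio (log axis), shRNA-SOX2-labelled library over shRNA-Con, for BCL2L1 (dark blue) and MCL1 (light blue) divided by each of the 8 pro-death genes, with 95% counting intervals. The points for BBC3 lie at 0.239 and 0.314, left of 1, and those for BAD at 1.61 and 2.11, right of 1.

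Of 7 further core family genes on a list, 5 were analysed. BCL2 and BCL2L10, both pro-survival, are not among the 13137 genes and have no value here. BCL2L2, which codes for the pro-survival protein BCL-w, had 60 tags in shRNA-Con against 94 in the shRNA-SOX2-labelled library, a ratio of 1.72 (95% interval 1.23 to 2.42; Fisher's exact test, adjusted p = 0.00358). It shares its locus with the read-through gene BCL2L2-PABPN1, so its tags are uncertain. BCL2A1, also pro-survival, had 17 and 9 tags and the effector BOK had 21 and 18. The BH3-only genes BMF and HRK had 5 and 3 and 2 and 0 tags. None of these 5 was called in Fisher's exact test (0 of 5), and 1, BCL2L2, had an unadjusted p under 0.05. That level was reached by 5800 of all 13137 genes.

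Among 8 BCL2-like and BNIP genes, 2 rose and 2 fell, where 9.53% of all genes were called higher and 12.2% lower. Among all genes with 100 or more tags in both libraries summed these shares were 16.6% and 22.5%. BNIP3L, a mitophagy receptor, went from 244 tags in shRNA-Con to 103 in the shRNA-SOX2-labelled library (log2 fold change -1.11), and BCL2L13, another mitophagy receptor, from 61 to 22 (-1.33). BNIP2 went from 123 to 179 (0.68) and BCL2L15 from 29 to 61 (1.21). BECN1, an autophagy protein with a BH3 motif, had 380 and 369 tags. The calls depended on the scaling. With clean tags BNIP2 and BCL2L15 did not pass and BNIP3, a further mitophagy receptor named after its values were seen, was called lower, and with TMM factors BCL2L13 did not pass. The median log2 fold change of these 8 was -0.64.

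Downstream of the pore, 1 of 8 genes for outer-membrane channels and released proteins rose and 2 fell, against 9.53% and 12.2% of all genes. Most of the 8 had 100 or more tags in both libraries summed, where these shares were 16.6% and 22.5%. CYCS, which codes for cytochrome c, had 970 tags in shRNA-Con against 591 in the shRNA-SOX2-labelled library (log2 fold change -0.58), and DIABLO, whose protein blocks the inhibitor of apoptosis proteins, had 324 and 198 (-0.57). VDAC1, a channel of the outer membrane, had 813 and 899 (0.28). With clean tags VDAC1 did not pass (adjusted p = 0.0414, Fisher's exact test), so that 0 rose and 2 fell. The median log2 fold change of the list was -0.11, close to the -0.10 of all genes.

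Of APAF1 and 7 caspase genes, 2 rose and 0 fell, with a median log2 fold change of 0.78. Over all genes 9.53% were called higher and 12.2% lower, and over those with 100 or more tags in both libraries summed 16.6% and 22.5%. CASP8, which codes for the caspase that cleaves BID, had 80 tags in shRNA-Con against 207 in the shRNA-SOX2-labelled library, a log2 fold change of 1.51 (Fisher's exact test, adjusted p = 1.01e-15). CASP10, also an initiator caspase of death receptors, had 2 and 18 tags, a ratio of 9.90 with a 95% interval from 2.37 to 88.0. The called genes of this list were the initiators of the death receptor route. APAF1, which builds the apoptosome, had 37 and 65 tags, was not called and is named after its values were seen.

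For the 6 inhibitor of apoptosis genes, 0 were called in Fisher's exact test, though all 6 log2 fold changes were below 0, with a median of -0.61 and a range of -0.93 to -0.29. In that test 3 had an unadjusted p under 0.05, and so had 5800 of all 13137 genes. With all clean tags as the total 3 were called, a scaling under which 66.6% of all calls were lower. XIAP, which codes for the caspase inhibitor of that name, had the most tags, 264 in shRNA-Con against 168 in the shRNA-SOX2-labelled library.

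Of 9 death receptor and adaptor genes analysed, 5 rose and 0 fell, against 9.53% and 12.2% of all genes. For all genes with 100 or more tags in both libraries summed the shares were 16.6% and 22.5%. FAS, a death receptor, had 55 tags in shRNA-Con against 185 in the shRNA-SOX2-labelled library, a log2 fold change of 1.89 (Fisher's exact test, adjusted p = 2.99e-19). TNFRSF10D, a decoy receptor for the ligand TRAIL, had 96 and 184 tags (1.08), the TRAIL receptor TNFRSF10B 1085 and 1226 (0.31) and the TNF receptor TNFRSF1A 628 and 729 (0.35). RIPK1, a kinase adaptor and the fifth gene called, had 27 and 64 (1.38) and was named after its values were seen. With clean tags the number called was 3, without TNFRSF10B and TNFRSF1A.

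BAD is controlled by kinases and 14-3-3 proteins, and of 15 such genes 1 rose and 3 fell, against 9.53% and 12.2% of all genes. Most of the 15 had 100 or more tags in both libraries summed, where 16.6% of all such genes were called higher and 22.5% lower. YWHAE, a 14-3-3 protein and the gene of this list with the most tags, went from 4202 tags in shRNA-Con to 2601 in the shRNA-SOX2-labelled library (log2 fold change -0.55), YWHAZ from 2185 to 1676 (-0.24) and YWHAQ from 1093 to 788 (-0.33). SFN, the 14-3-3 protein of epithelial cells, went from 354 to 485 (0.59). The number called was 7 with clean tags, among them the kinase PIM1, called lower with 90 and 42 tags. With TMM factors the number was again 4, with the kinase PIM2 (53 and 90 tags) called higher and YWHAZ not called. PIM1 and PIM2 were named after their values were seen. Of 9 genes acting on the MCL1 and BIM proteins, 2 rose and 1 fell, against the same shares of all genes and of those with 100 or more tags. HUWE1 and FBXW7 code for ubiquitin ligases that mark MCL1 for destruction. HUWE1 had 360 and 218 tags (-0.59) and FBXW7 had 15 and 47 (1.79). DYNLL2, a dynein light chain that binds BMF, had 44 and 99 (1.31), and DYNLL1, which binds BIM, had 755 and 643.

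Among 13 transcription factors known to act on family genes, 0 rose and 6 fell, with a median log2 fold change of -0.65. The shares of all genes called higher and lower were 9.53% and 12.2%, and with 100 or more tags in both libraries summed 16.6% and 22.5%. MYC, a growth factor response gene, had 542 tags in shRNA-Con against 125 in the shRNA-SOX2-labelled library, a log2 fold change of -1.98 (Fisher's exact test, adjusted p = 1.12e-52). The AP-1 subunit JUN had 697 and 225 (-1.49) and DDIT3, the stress factor CHOP that is known to raise BCL2L11, 134 and 29 (-2.07). ATF4, which had the most tags of this list, had 824 and 548 (-0.45).

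**Figure D5:**
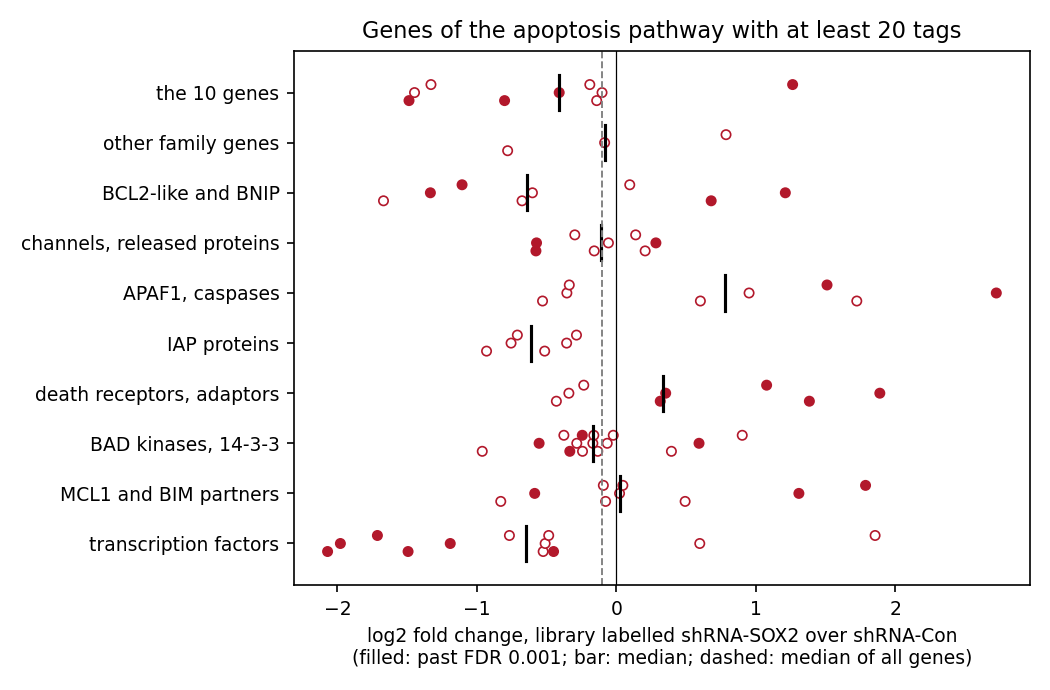
Log2 fold change, shRNA-SOX2-labelled library over shRNA-Con, of the genes with 20 or more tags in both libraries summed, by list, with a count under 3 set to 3. Filled points are past FDR 0.001 in Fisher's exact test, the short bars are list medians and the dashed line is the median of all genes (-0.10). The points of the transcription factors lie mostly to the left (median -0.65), and the median of APAF1 and the caspases lies to the right (0.78).

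The calls take the spread between cultures as 0, and these libraries hold no replicate to measure it. When a coefficient of variation of 0.1 between cultures was assumed (exact test of edgeR), BBC3 and BAD passed FDR 0.001 (2 of 10), against 8.88% of all genes. With 0.2 the number was 0, against 0.86% of all genes, and 4 members had an unadjusted p under 0.05 in that test, against 18.9% of all genes.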

How the data were processed

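The study profiled A549 cells carrying an inducible hairpin against SOX2 or a scrambled one, 1 library each. The authors deposited raw tag counts per Entrez Gene ID (hg19 is named in the submitters' processing notes, and the aligner, counter and annotation are not given in the sources used here). Their deposited TPM is the count per 1000000 clean tags, where a gene without tags reads 0.01. These give 3516266 clean tags for shRNA-Con and 3456234 for the shRNA-SOX2-labelled library, of which 65.5% and 60.6% were on listed genes. The smallest count above 0 was 2, so a gene at 0 sets no limit. Deposited log2 ratios, p-values and FDR compare the libraries and were not used. The column abbreviation SC was read as shRNA-Con and S1 as shRNA-SOX2.

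Ratios compare shares of gene tags as counted. Log2 fold changes set a count under 3 to 3, so that for BIK and CASP10 they differ from the log2 of the printed ratio. Fisher's exact test was adjusted by Benjamini-Hochberg over 13137 genes. Ratio intervals are exact conditional binomial at 95%, those of single counts Poisson, and those of shares Clopper-Pearson. Medians use genes with at least 20 tags. Gene lists were matched through RefSeq gene IDs, found for 13086 genes. Rows without a symbol held 0.0535% and 0.0372% of the gene tags. Members and lists were chosen with earlier results of these data known. Named were all members, the listed further family genes, SOX2, and per other list at most the 4 called genes of smallest adjusted p and the gene with the most tags. Some listed genes are not reported here. The steps were tested on simulated data. Python 3.11.15, scipy 1.17.1, R 4.3.3, edgeR 4.0.16 and DESeq2 1.42.0 (size factors) were used. Alternatives were the median ratio, TMM factors, scaling by clean tags, a coefficient of variation that was assumed, a minimum of 10 tags, FDR 0.05, a log2 fold change of at least 1, and 0.5 added to each count.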

Additional observations from a re-analysis of the deposited data

How the results depend on the processing

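No paired analysis was possible because a single library stands for each condition, which also left none to leave out. The share without BBC3 was added after seeing the data. Over all genes the number called was 2849. When a coefficient of variation of 0.1 between cultures was assumed (exact test of edgeR), the number was 1166, with 0.2 it was 113, and with 0.4 it was 0, with 627 genes at an unadjusted p under 0.05. An FDR of 0.05 gave 4902 and requiring a 2-fold change, a log2 value of 1, gave 1570. Of the calls 56.1% were lower, and this was 49.7% by the median ratio, 49.4% by TMM factors, 66.6% with clean tags and 42.5% with an assumed coefficient of 0.2.

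Of the 10 members, 4 were called. The number was 2 with an assumed coefficient of 0.1 (BBC3 and BAD), 0 with 0.2 and with 0.4, and 2 when a log2 change of 1 or more was required, which follows from the assumed spread and the required size. With TMM factors or the median ratio it was 3, since MCL1 fell short of the threshold. No member changed direction under the 3 scalings or with 0.5 added to each count.

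The pro-survival share of member tags, 54.0% in shRNA-Con against 39.4% in the shRNA-SOX2-labelled library, was 61.9% and 59.6% without BBC3, and 42.4% and 43.4% without the most abundant member on each side. With the further family genes it was 42.9% in the shRNA-SOX2-labelled library. With an assumed coefficient of 0.2, 0 genes were called in the pathway lists described, and the A549 markers were not tested under it. With clean tags 3018 of all 13137 genes were called. The calls were then 3 for inhibitor of apoptosis genes, 3 for death receptors, 7 for BAD kinases and 14-3-3 proteins, 8 for transcription factors, 2 for channels and released proteins and 3 for BCL2-like and BNIP genes. Depth limits BIK, with 4 and 2 tags, and HRK, with 2 and 0.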
